A study of Homo sapiens with 18 samples.

Results

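Transcript levels of 10 genes of the amino acid stress programme were followed in BE(2)-m17 human neuroblastoma cells that overexpress the exporter ABCC1. The genes were ATF4, the transcription factor at the head of this programme, and 9 genes known as its targets or co-workers: DDIT3, TRIB3, CHAC1, ASNS, PHGDH, PSAT1, SESN2, DDIT4 and VLDLR. They were picked by gene symbol from the 57905 Ensembl genes that were counted, and all 10 symbols matched 1 gene each. BE(2)-m17 is an established neuroblastoma line, and the study asked whether ABCC1 changes the transcription of genes that act on the amyloid precursor protein, APP.

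All cells of both lines carried pSBbi-Hyg-APP, a Sleeping Beauty transposon vector that expresses APP and confers resistance to hygromycin. The control line, Puro, also carried the empty vector pSBbi-Pur, and the other line, ABCC1, carried pSBbi-Pur-ABCC1(WT), which encodes ABCC1 from a codon-optimized sequence. Both lines consisted of stable transfectants selected with puromycin from cells that already carried APP. No clone is named, the transposon inserts at sites that were not controlled, and nothing states that libraries of a group came from separate transfections. There were 3 experiments, RNA1, RNA2 and RNA3, each with 3 Puro and 3 ABCC1 libraries, 18 in all. For each library 14000000 cells were plated in a well without the selecting antibiotics, and RNA was taken on day 4. The study plated cells weekly, and the labels give neither the week nor the origin of a library, so that P-values measure the spread between these libraries. RNA2 and RNA3 were made with the SMARTer Pico total RNA kit. For RNA1 a sample label and the study's methods name the TruSeq RNA kit, whereas the protocol label names SMARTer Pico, so levels were compared within an experiment. The study describes the repeat experiments as made from cryopreserved and from newly transfected cells, and the labels do not say which of RNA2 and RNA3 is which.

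ATF4 is translated when a kinase phosphorylates the initiation factor eIF2, which slows the translation of most messages and lets ribosomes reach the ATF4 reading frame. The kinase GCN2 (EIF2AK4) responds to uncharged transfer RNA when amino acids run short, PERK (EIF2AK3) to unfolded protein in the endoplasmic reticulum, PKR (EIF2AK2) to double-stranded RNA and HRI (EIF2AK1) to low heme. ATF4 then raises transcription of genes for amino acid synthesis, amino acid uptake and the charging of transfer RNA. Because much of this control acts on translation, the amount of ATF4 transcript need not follow the amount of ATF4 protein. ABCC1, also known as MRP1, exports glutathione, its conjugates and many drugs.

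The best known DNA element of this programme is the C/EBP-ATF response element, whose core was searched as TGATGNAA on both strands of the promoters of all 10 genes, from 250 bases before to 50 after the start site. The core was present in the promoters of ASNS and CHAC1 only, that is in 2 of the 10 (20%), against 1003 of 27305 promoters of the same length (3.67%). The version TGATGCAA, which the core includes, was present in 252 of them (0.923%). Both promoters are shown 5′ to 3′ on the strand of the gene, with the match in capitals, because they hold the letters of this element and CHAC1 and ASNS recur in the comparisons. Sequences and positions are from RefSeq on GRCh38.p14, whereas the counts use GRCh37. In ASNS the match lies 68 to 61 bases before the start site, and in CHAC1 it lies 209 to 202 bases before it and reads TTGCATCA, the reverse complement of TGATGCAA.
ASNS promoter, chr7:97872359-97872658 (minus strand): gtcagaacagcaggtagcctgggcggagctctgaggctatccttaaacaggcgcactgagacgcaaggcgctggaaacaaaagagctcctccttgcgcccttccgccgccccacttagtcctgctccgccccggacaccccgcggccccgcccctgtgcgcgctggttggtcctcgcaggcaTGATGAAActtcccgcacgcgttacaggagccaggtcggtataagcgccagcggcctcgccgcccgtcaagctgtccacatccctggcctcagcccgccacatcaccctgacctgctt
CHAC1 promoter, chr15:40953221-40953520 (plus strand): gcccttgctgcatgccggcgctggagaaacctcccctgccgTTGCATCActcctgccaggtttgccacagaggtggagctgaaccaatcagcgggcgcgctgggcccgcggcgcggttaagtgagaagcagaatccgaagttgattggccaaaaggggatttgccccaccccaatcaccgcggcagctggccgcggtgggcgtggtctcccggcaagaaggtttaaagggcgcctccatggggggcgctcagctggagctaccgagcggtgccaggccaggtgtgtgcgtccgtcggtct

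The other 8 promoters have no match within these 300 bases, which says nothing of elements farther away or within introns. A match describes letters in a sequence and is no measure of binding.

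Depth, as read pairs assigned to genes, was between 27433393 and 57937653 per library in RNA1, between 19577853 and 30996228 in RNA2 and between 8866994 and 13332413 in RNA3. The codon-optimized ABCC1 sequence had between 51035 and 594404 counts in each ABCC1 library and at most 15 in each Puro library, so the labels of the lines fit the vector they name. Replicates of a group differed by more than sampling noise (chi-square per degree of freedom between 1.35 and 19.3). The variation between replicates was 5.67% in RNA1, 35.3% in RNA2 and 19.7% in RNA3, as the square root of edgeR's common dispersion. The neuroblastoma markers HAND2, GATA3, PHOX2A, ISL1, DBH and MYCN were well above background in all 18 libraries. In RNA1 MYCN was called higher in ABCC1 and DBH, ISL1, PHOX2A and GATA3 lower, in RNA2 none of these was called, and in RNA3 DBH and PHOX2A were lower. Summed over 10 markers of blood, epithelial, endothelial, stromal, glial and liver cells, the level was 1.13 to 1.46 CPM per kilobase in Puro and 1.15 to 1.20 in ABCC1 in RNA1, 8.68 to 11.8 and 3.60 to 6.67 in RNA2, and 20.1 to 24.6 and 17.5 to 20.7 in RNA3. These markers therefore moved with the line in RNA2, as the olfactory reads did, and their part in the changes of the 10 genes was not tested. Of the 5 that could be tested in RNA1, COL1A1 was called higher, and 1 of 10 was called lower in RNA3. The endothelial marker CDH5 had no count in the RNA1 Puro libraries and the T cell marker CD3E none in the RNA1 ABCC1 libraries. Reads on 372 olfactory receptor genes, a measure of background, stood at 0.00486 ± 0.000403 CPM per kilobase in Puro and 0.00404 ± 0.000292 in ABCC1 in RNA1, at 0.576 ± 0.0880 and 0.302 ± 0.144 in RNA2, and at 1.57 ± 0.0948 and 1.24 ± 0.156 in RNA3 (SD, n=3). This background was lower in ABCC1 than in Puro in each experiment, and its part in the changes of the 10 genes was not tested beyond the fits that use it as a covariate. Its library values did not overlap between the lines in any experiment, so those fits cannot fully separate it from line. The least abundant of the 10 genes, VLDLR, was at 7.46 CPM per kilobase or more in each group mean.

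The 10 genes spanned a wide range of levels. CPM, the TMM-scaled counts relative to depth, were divided by exon length in kilobases to set genes side by side, and values are means ± SD of 3 Puro libraries. In RNA1 the order from the top was ATF4 at 456 ± 15.9, TRIB3 at 390.0 ± 14.2, PSAT1 at 268 ± 6.24, DDIT4 at 166 ± 8.97 and CHAC1 at 91.9 ± 1.37. DDIT3 at 50.4 ± 1.49, SESN2 at 44.8 ± 0.568, PHGDH at 37.6 ± 1.50, ASNS at 23.0 ± 0.183 and VLDLR at 17.3 ± 0.563 followed, and each step of this order was larger than the SD of either neighbour. ATF4 and TRIB3 also led in RNA2, at 476 ± 47.4 and 109 ± 16.6, and in RNA3, at 385 ± 74.9 and 149 ± 25.7. VLDLR was the lowest in both, at 7.62 ± 1.50 and 10.5 ± 2.27. In the middle of the order neighbours could not be told apart in the repeat experiments. PSAT1 and DDIT4 were at 50.4 ± 13.4 and 45.8 ± 9.87 in RNA2, where PHGDH at 29.4 ± 4.96 also overlapped CHAC1, and CHAC1, SESN2 and ASNS were at 19.9 ± 5.13, 16.5 ± 3.22 and 15.3 ± 4.87. In RNA3 PSAT1 at 84.9 ± 22.9 and DDIT4 at 69.0 ± 13.8 overlapped within their SD, as did DDIT3 at 36.9 ± 10.9, CHAC1 at 36.8 ± 9.95, PHGDH at 33.7 ± 7.81 and SESN2 at 28.2 ± 6.63, and ASNS at 12.9 ± 2.06 overlapped VLDLR. Instrument, cells and, by the study's methods, the kit differ between RNA1 and the other experiments, and cannot be told apart as sources of the differences in level.

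In RNA1, 6 of the 10 genes were lower in ABCC1 than in Puro and none was higher at an adjusted P of at most 0.05. TRIB3, CHAC1, ASNS, PSAT1, SESN2 and VLDLR fell, by 7.25% (ASNS) to 25.3% (CHAC1). Over all 16995 genes tested, 19.7% were called lower and 17.9% higher. In 7 of the 10, PHGDH being the seventh, the 3 ABCC1 libraries all lay below the 3 Puro libraries, a pattern shown by 25.7% of all genes. In bulk RNA, less transcript per cell and fewer cells that express a gene cannot be told apart. The median log2FC of the 10 genes was −0.18, beside 0.0074 over all genes tested. Adjusted P-values (Padj) come from the edgeR quasi-likelihood test, adjusted by Benjamini-Hochberg over all genes tested, with N=6 and n=3 in each experiment. The two-sided exact permutation test, which for groups of 3 stops at a smallest possible P of 0.1, gave 0.1 for each of these 7 genes.

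The transcription factors did not pass the test in RNA1. ATF4 (ENSG00000128272; chromosome 22, 39915700 to 39918691, plus strand, GRCh37) was at 1149, 1186 and 1106 CPM in the Puro libraries and at 1122, 1112 and 1098 CPM in the ABCC1 libraries. The groups overlap, and the difference was −0.046 on the log2 scale with a 95% interval of −0.14 to 0.050 (Padj=0.442). DDIT3 (ENSG00000175197; chromosome 12, 57910371 to 57914300, minus strand), which encodes CHOP, a factor tied to cell death under lasting stress, was at 58.4, 61.4 and 58.4 CPM in Puro and 63.0, 66.2 and 60.3 CPM in ABCC1. It was the only member with a positive sign, at 0.088 with an interval of −0.021 to 0.20 (Padj=0.189). MARS (MARS1), a gene on the opposite strand, overlaps 30.1% of the exon bases of DDIT3, and the counting did not use strand, so reads of both genes cannot be told apart there.

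TRIB3 and CHAC1 had the largest changes. TRIB3 (ENSG00000101255; chromosome 20, 361261 to 378203, plus strand) encodes a pseudokinase that binds ATF4 and dampens it. Its level was 1181, 1102 and 1166 CPM in Puro and 859, 852 and 974 CPM in ABCC1 (log2FC=−0.36, SE 0.058, Padj=0.000709). Replicate 3 of ABCC1 was the highest of its group and still below each Puro library. CHAC1 (ENSG00000128965; chromosome 15, 41245160 to 41248710, plus strand) encodes an enzyme that breaks down glutathione. It was at 190.2, 185 and 190.1 CPM in Puro and 134, 132 and 157 CPM in ABCC1 (log2FC=−0.42, SE 0.062, Padj=0.000409). The Puro libraries lay close together and replicate 3 of ABCC1 again lay nearest to them.

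Enzymes of amino acid synthesis make up the next group. ASNS (ENSG00000070669; chromosome 7, 97481430 to 97501854, minus strand), which makes asparagine, was at 103, 102 and 102 CPM in Puro and 94.9, 96.1 and 94.3 CPM in ABCC1 (log2FC=−0.11, SE 0.037, Padj=0.0418). The gap is small and the spread within each group smaller still, but the call was lost when any 1 of 5 of the 6 libraries was left out, all except replicate 3 of ABCC1. PHGDH (ENSG00000092621; chromosome 1, 120202421 to 120286838, plus strand) catalyses the first step of serine synthesis and had 207, 206 and 221 CPM in Puro and 202, 194 and 181 CPM in ABCC1 (log2FC=−0.14, SE 0.050, Padj=0.0515). It missed the threshold although its groups do not overlap. PSAT1 (ENSG00000135069; chromosome 9, 80912059 to 80945009, plus strand), the next enzyme of that pathway, was at 589, 571 and 598 CPM in Puro and 500.0, 512 and 501 CPM in ABCC1 (log2FC=−0.22, SE 0.040, Padj=0.00154). Its libraries fell into tight and separate groups. ATF4, ASNS and PSAT1 have annotated pseudogenes, and pairs that map to more than 1 place were not counted.

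Of the 2 regulators of mTORC1, the kinase complex that drives growth when amino acids are plentiful, SESN2 passed the test and DDIT4 did not, and their difference was not tested. SESN2 (ENSG00000130766; chromosome 1, 28586038 to 28609002, plus strand), a leucine sensor that restrains mTORC1, was at 154, 154 and 157 CPM in Puro and 119, 113 and 137 CPM in ABCC1 (log2FC=−0.33, SE 0.062, Padj=0.00211). All 3 ABCC1 libraries were below the Puro libraries, replicate 3 the least so. DDIT4 (ENSG00000168209; chromosome 10, 74033678 to 74035794, plus strand), also called REDD1, restrains mTORC1 as well and had 363, 331 and 330.4 CPM in Puro and 306, 311 and 363 CPM in ABCC1 (log2FC=−0.062, SE 0.067, Padj=0.505). Here the groups overlap, since replicate 3 of ABCC1 was level with the highest Puro library. A gene on the opposite strand overlaps 41.2% of the exon bases of DDIT4. VLDLR (ENSG00000147852; chromosome 9, 2621834 to 2660053, plus strand), a lipoprotein receptor that is induced with the stress programme, was at 158, 158 and 167 CPM in Puro and 133, 133 and 139 CPM in ABCC1 (log2FC=−0.26, SE 0.041, Padj=0.000718). Its groups do not overlap, and an antisense gene covers 4.70% of its exon bases.

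**Figure D1:**
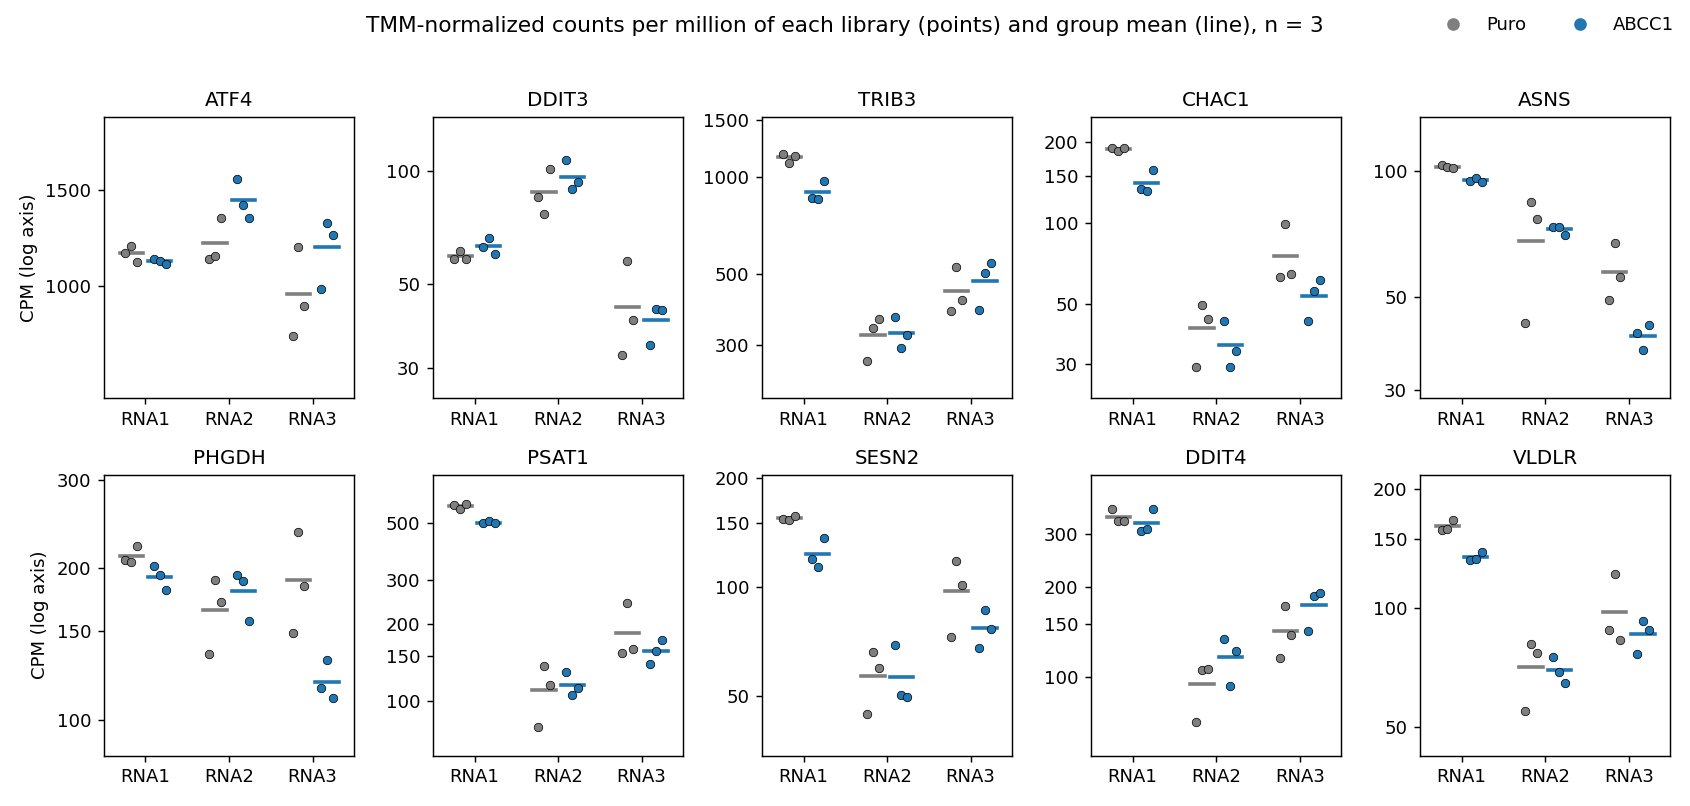
TMM-normalized CPM (log axis) of the 10 genes in each of the 18 libraries, grey for Puro and blue for ABCC1; points are libraries and lines are group means, n=3. In RNA1 the points are tight, and blue lies below grey for TRIB3, CHAC1, ASNS, PHGDH, PSAT1, SESN2 and VLDLR; in RNA2 the points of all 10 genes overlap between the lines.

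Of the libraries left out in turn, replicate 3 of ABCC1 moved the RNA1 count the most. Without it, 9 of the 10 genes passed the test, with DDIT3 higher and PHGDH and DDIT4 lower beside the 6. Without each of the other RNA1 libraries in turn, 5 or 6 passed, and TRIB3, CHAC1, PSAT1, SESN2 and VLDLR were among them each time. With the olfactory receptor reads as a covariate, CHAC1 and VLDLR passed and the other 4 calls were lost, at log2FC values of −0.43 for TRIB3 (Padj=0.0512), −0.28 for PSAT1, −0.33 for SESN2 and −0.12 for ASNS, none nearer to 0 than without the covariate. In RNA1 this covariate rested on 49 to 99 counts per library, and its values did not overlap between the lines. With a spread shared across all 18 libraries none passed. The log2FC of CHAC1 and TRIB3 was −0.32 and −0.26 in that fit, whose TMM factors were set over all 18 libraries, and −0.42 and −0.36 with factors set within each experiment, where none passed either. The median of the 10 was −0.076 and −0.18 in these 2 fits. DESeq2 called 5 of the 10 (ASNS was lost, Padj=0.123), and without a filter on low counts ASNS was lost (Padj=0.200) and PHGDH called. With RLE size factors, and likewise when each library had to hold 10 counts, 7 were called, the 6 and PHGDH.

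In RNA2 no change of the 10 genes was detectable. None passed the test, in either direction, and none had an unadjusted P under 0.05. The background in RNA2 was 1.25% of 34091 genes called higher and 0.458% called lower. This split of 425 higher and 156 lower turned to 350 and 438 when each library had to hold 10 counts and to 2106 and 2818 with the shared spread, and was 2487 and 361 with DESeq2. DESeq2 and limma-voom also called none. No gene had its 3 ABCC1 libraries all below the 3 Puro libraries, a pattern shown by 16.4% of all genes. In 7 of the 10 the sign was positive, and the median log2FC of the 10 was 0.078, beside −0.19 over all genes tested. These signs depended on the setting. With a filter of 10 counts in each library the median of the 10 was −0.040 and with background reads as a covariate −0.14, and 7 of the 10 were negative under each. Without replicate 1 of Puro the median was −0.081 and 6 were negative, and without replicate 1 of ABCC1 it was 0.027 with 5 negative. Under the other alternatives run for RNA2 the median lay between 0.078 and 0.21. With RLE size factors in place of TMM the median over all genes tested moved from −0.19 to −0.082. The members rose with it, SESN2 from −0.012 to 0.10 and VLDLR from −0.030 to 0.078.

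The intervals in RNA2 were wide. DDIT4 had 70.8, 105 and 106 CPM in Puro and 134, 93.0 and 122 CPM in ABCC1, a log2FC of 0.30 with a 95% interval of −0.088 to 0.69 (Padj=0.354). ATF4 was at 1119, 1137 and 1334 CPM in Puro and 1569, 1408 and 1332 CPM in ABCC1, a log2FC of 0.26 with an interval of −0.14 to 0.67 (Padj=0.441). These were the 2 highest values among the 10, and the libraries of the 2 lines overlap in both. CHAC1, the lowest, was at 29.1, 49.4 and 44.0 CPM in Puro and 43.2, 29.0 and 33.3 CPM in ABCC1, with a log2FC of −0.21 and an interval of −0.60 to 0.17 that includes its RNA1 value (Padj=0.516). TRIB3 had 266, 337 and 359.6 CPM in Puro and 367, 293 and 322 CPM in ABCC1, a log2FC of 0.029 with an interval of −0.36 to 0.41. Its lower end lies about at the RNA1 value of TRIB3. For PSAT1 the libraries held 78.9, 137 and 115 CPM in Puro and 129, 105 and 112 CPM in ABCC1 (log2FC=0.067, interval −0.33 to 0.46). ASNS was at 43.5, 84.2 and 76.9 CPM in Puro and 73.6, 73.7 and 70.6 CPM in ABCC1 (log2FC=0.090, interval −0.31 to 0.49). In both enzymes replicate 1 of Puro was far below its group and the 3 ABCC1 libraries lay close together. The other 4 genes had log2FC values of 0.12 (PHGDH), 0.14 (DDIT3), −0.012 (SESN2) and −0.030 (VLDLR), and their intervals reached from −0.38 (VLDLR) to 0.50 (PHGDH).

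In RNA3 a single member passed. PHGDH was lower in ABCC1, at 148, 236 and 184 CPM in Puro against 115, 131 and 110.3 CPM in ABCC1, a fall of 37.2% (log2FC=−0.67, SE 0.19, Padj=0.0269). The highest ABCC1 library lay below the lowest Puro library. Over all 36509 genes tested, 0.767% were called lower and 2.03% higher. In 3 of the 10 genes the ABCC1 libraries were all below the Puro libraries, a pattern shown by 10.9% of all genes, and these 3 had an unadjusted P under 0.05. Beside PHGDH they were ASNS, at 49.2, 67.4 and 55.9 CPM in Puro and 41.1, 37.4 and 42.9 CPM in ABCC1 (log2FC=−0.51, SE 0.16, Padj=0.0702), and CHAC1, at 62.9, 99.0 and 64.4 CPM in Puro and 43.3, 56.0 and 61.5 CPM in ABCC1 (log2FC=−0.49, SE 0.17, Padj=0.109). Both missed the threshold. The median log2FC of the 10 genes was −0.22, beside −0.091 over all genes tested. It rested on single libraries, since it was 0.012 with 6 genes positive without replicate 2 of Puro and −0.089 without replicate 1 of ABCC1. With background reads as a covariate it was −0.67 and all 10 were negative, and under the other alternatives run for RNA3 it lay between −0.29 and −0.14.

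The call of PHGDH in RNA3 was not stable. It was lost without Puro replicate 3 (Padj=0.141), without ABCC1 replicate 1 (0.0685), 2 (0.136) or 3 (0.275), with RLE size factors (0.0864) and with the background covariate (0.0793), although its log2FC stayed between −0.91 and −0.47 in these and the other alternatives. With the covariate CHAC1 passed in its place, at a log2FC of −1.20 (Padj=0.00263). With at least 10 counts in every library ASNS passed beside PHGDH, and with the replicate block CHAC1 and ASNS both did. Without Puro replicate 2, DDIT4 passed as higher in ABCC1 beside PHGDH.

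The other 7 genes did not pass in RNA3. SESN2 was at 72.7, 118 and 101 CPM in Puro and 68.1, 86.7 and 76.5 CPM in ABCC1 (log2FC=−0.34, SE 0.18, Padj=0.361), and PSAT1 at 154, 243 and 159 CPM in Puro and 139.6, 157 and 174 CPM in ABCC1 (log2FC=−0.25, SE 0.19, Padj=0.587). In both the groups overlap, and Puro replicate 2 was the highest library. ATF4 had 809, 1176 and 918 CPM in Puro and 985, 1302 and 1242 CPM in ABCC1, with a log2FC of 0.28 and an interval of −0.17 to 0.73 (Padj=0.608). DDIT4 had 116, 172 and 138 CPM in Puro and 142, 187 and 191 CPM in ABCC1, with a log2FC of 0.29 and an interval of −0.087 to 0.66 (Padj=0.499). TRIB3, the member with the second largest change in RNA1, was at 381, 526 and 413 CPM in Puro and 384, 501 and 538 CPM in ABCC1. Its libraries overlap, and its log2FC of 0.11 had an interval of −0.31 to 0.52, above the RNA1 value of −0.36. DDIT3 (−0.12, interval −0.45 to 0.21) and VLDLR (−0.19, interval −0.54 to 0.16) also overlapped between the lines. With the background covariate the log2FC of ATF4, DDIT4 and TRIB3 turned negative (−0.24, −0.28 and −0.48), none past the test.

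**Figure D2:**
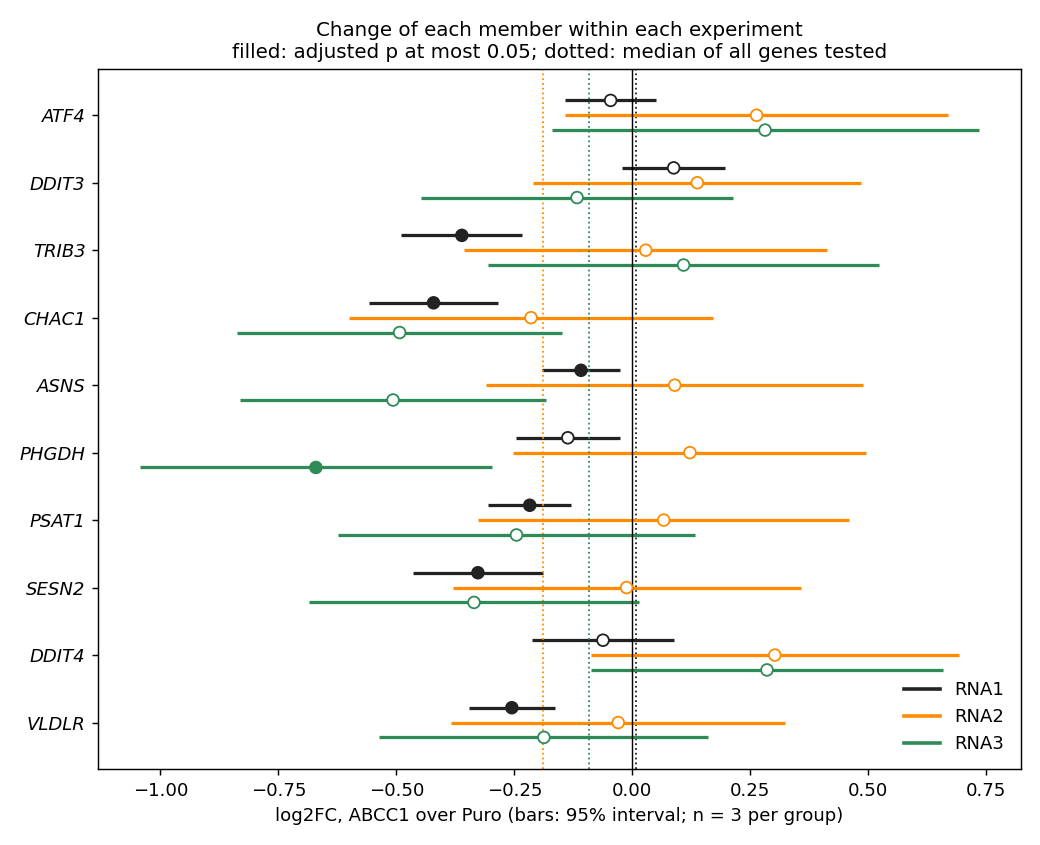
log2FC of ABCC1 over Puro for each gene (x axis) with 95% intervals in RNA1 (black), RNA2 (orange) and RNA3 (green); filled points have an adjusted P of at most 0.05 and dotted lines mark the median of all genes tested in each experiment. All filled points lie left of 0: TRIB3, CHAC1, ASNS, PSAT1, SESN2 and VLDLR in RNA1 and PHGDH in RNA3, while each RNA2 interval crosses 0.

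Across the 3 experiments CHAC1 had a negative log2FC in each (−0.42, −0.21 and −0.49), as had SESN2 and VLDLR, whose RNA2 values of −0.012 and −0.030 were close to 0 and changed sign with RLE size factors. The change common to the experiments was estimated in a joint fit of the 18 libraries. None of the 10 genes passed in it, against 12.9% of 46225 genes tested, and 3 had an unadjusted P under 0.05. CHAC1 came nearest (−0.31, SE 0.11, Padj=0.0520), and the other 2 were positive, DDIT4 at 0.24 (Padj=0.147) and ATF4 at 0.23 (Padj=0.176). The median of the 10 genes in the joint fit, −0.080, was close to that of all genes tested, −0.081. The median of the 10 was −0.17 with RLE size factors and with DESeq2, −0.14 with TMM within each experiment and −0.26 with at least 10 counts per library (−0.23 with both of the last 2). It was 0.013 with 5 genes positive without replicate 2 of Puro from RNA3, −0.016 without replicate 2 of Puro from RNA2, −0.032 without replicate 1 of ABCC1 from RNA3 and −0.14 without replicate 1 of Puro from RNA2. The median over all genes moved to −0.17 with RLE size factors and to −0.26 with DESeq2, and the split of called genes from 4339 higher and 1641 lower to 3094 and 2317 with RLE size factors.

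The joint count of members depended on the filter and the scaling. With at least 10 counts in every library, 14773 genes were tested and 7 of the 10 passed, all lower: TRIB3, CHAC1 (−0.49, Padj=2.52e-05), ASNS, PHGDH (−0.34), PSAT1, SESN2 (−0.34) and VLDLR. DESeq2 and RLE size factors each called CHAC1 (−0.40), PHGDH (−0.25) and SESN2 (−0.25). With TMM factors set within each experiment, a choice made after seeing the data, CHAC1 alone passed (−0.38, Padj=0.00733), and 6 genes passed with that choice and at least 10 counts. Leaving out 1 library of the 18, also chosen after seeing the data, gave CHAC1 alone in 6 cases (RNA1 ABCC1 replicate 3, RNA2 Puro and ABCC1 replicates 1, RNA3 Puro replicates 1 and 3, RNA3 ABCC1 replicate 3), and ATF4 and DDIT4, both higher, without RNA3 Puro replicate 2 or RNA3 ABCC1 replicate 1.

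A test of the interaction of experiment and line asked whether the change differed between experiments. No member passed it, against 1.19% of 46225 genes, and 1 had an unadjusted P under 0.05. This was PHGDH, whose log2FC in RNA3 minus that in RNA2 was −0.73 and minus that in RNA1 was −0.56 (unadjusted P=0.00977, Padj=0.286). DESeq2 and the fit with at least 10 counts in every library each called PHGDH. For TRIB3 the RNA3 value exceeded the RNA1 value by 0.447 (Padj=0.821), which did not show a difference between experiments.

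In the repeat experiments the 10 genes moved together from library to library. RNA2 Puro replicate 1 was the lowest of its group in 9 of the 10 genes, with a median deviation from the group mean of −0.34 on the log2 scale. RNA2 ABCC1 replicate 1 was the highest in 9 (0.16). RNA3 Puro replicate 2 was the highest in all 10 (0.32), RNA3 Puro replicate 1 the lowest in 9 (−0.24) and RNA3 ABCC1 replicate 1 the lowest in 8 (−0.19). Other genes leaned the same way but less. Of the 13545 genes with a mean of at least 100 counts in RNA2, 49.8% were lowest in Puro replicate 1, with a median deviation of −0.079. Of 12949 such genes in RNA3, 63.1% were highest in Puro replicate 2, with a median deviation of 0.14. In RNA1 no library was the highest or lowest in more than 5 of the 10 genes. This common movement within groups enters each comparison of the 10 genes in RNA2 and RNA3, so the genes are not independent of each other.

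**Figure D3:**
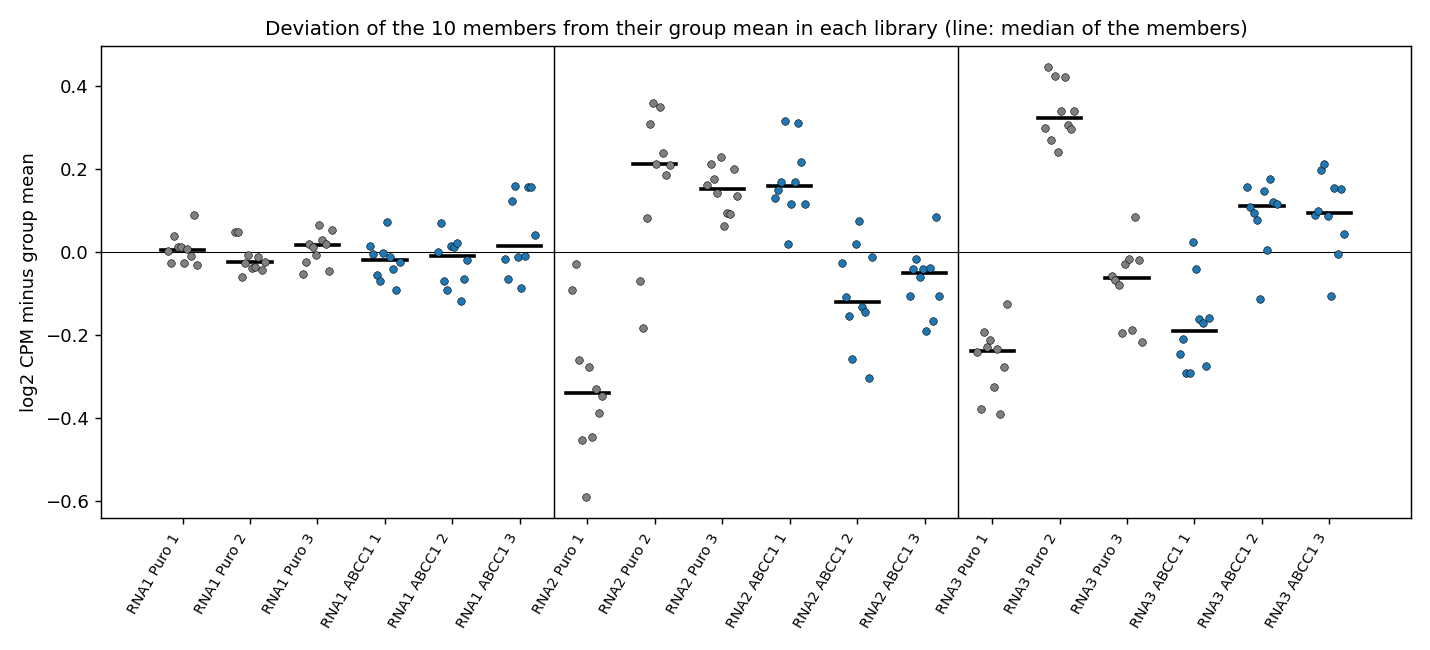
Deviation of each of the 10 genes from its group mean (log2 CPM, y axis) in each library; points are genes, grey for Puro and blue for ABCC1, and black lines are medians over the genes. RNA1 libraries center on 0, while RNA2 Puro 1 lies low (median −0.34) and RNA3 Puro 2 lies high (median 0.32).

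The rest of the pathway was described from lists picked for function. The eIF2 kinases, eIF2 and the subunits of its phosphatase come first. No gene of these lists passed in RNA2 with edgeR, although each list held between 1 and 4 genes with an unadjusted P under 0.05 there and between 2 and 5 in RNA3. Each list count is read against the share over all genes, 17.9% higher and 19.7% lower in RNA1, 1.25% and 0.458% in RNA2, and 2.03% and 0.767% in RNA3. Of 7 eIF2 genes, 2 rose and 2 fell in RNA1, and none passed in RNA2 or RNA3, where the median log2FC was 0.37 and 0.33. The kinases EIF2AK2 (0.26, Padj=0.00470) and EIF2AK4 (0.19, Padj=0.00495) were higher in RNA1. EIF2AK2 was at 113, 109 and 113 CPM in Puro and 142, 139 and 121 CPM in ABCC1 in RNA1, at 51.3, 79.6 and 57.3 CPM in Puro and 105, 91.7 and 90.5 CPM in ABCC1 in RNA2 (0.61, Padj=0.0706) and at 69.6, 91.6 and 65.9 CPM in Puro and 95.3, 110.1 and 112 CPM in ABCC1 in RNA3 (0.48, Padj=0.126). Its ABCC1 libraries lay above all Puro libraries in each experiment. In the joint fit 4 of the 7 eIF2 genes were called higher and 0 lower, beside 9.39% and 3.55% of all genes. They were EIF2AK2 (0.51, Padj=6.04e-05), EIF2AK4 (0.34, Padj=0.00301), EIF2AK1 (0.34, Padj=0.0119) and the eIF2 subunit EIF2S1 (0.33, Padj=0.0114). The same 4 were called with DESeq2, with RLE size factors, with the replicate block and with TMM within each experiment, and all except EIF2S1 with the filter of 10 counts in each library. PPP1R15A (−0.32, Padj=0.000304) and PPP1R15B (−0.44, Padj=4.18e-05), which direct the phosphatase that reverses eIF2 phosphorylation, were lower in RNA1 but not in the joint fit, at 0.18 (Padj=0.392) and 0.057 (Padj=0.991). In RNA2 and RNA3 PPP1R15A stood at 0.32 and 0.33, neither past the test.

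Among 7 bZIP partners and other transcription regulators, 1 of them the member DDIT3, 1 rose and 3 fell in RNA1 (17.9% and 19.7% of all genes), none passed in RNA2 and 1 rose in RNA3. CEBPG, a bZIP protein that pairs with ATF4, was the gene that rose in both. Its level in RNA1 was 467, 457 and 471 CPM in Puro and 523, 528 and 508 CPM in ABCC1 (log2FC=0.16, SE 0.039, Padj=0.00840). In RNA2 it was 136, 179.7 and 164 CPM in Puro and 275, 214 and 248 CPM in ABCC1 (log2FC=0.62, SE 0.18, Padj=0.0711), and in RNA3 121, 178 and 106 CPM in Puro and 215, 260.3 and 281 CPM in ABCC1 (log2FC=0.90, SE 0.20, Padj=0.00169). The ABCC1 libraries lay above all Puro libraries in each experiment, and the joint fit called it (0.63, Padj=1.01e-05). ATF5 (−0.58), ATF3 (−0.33) and JDP2 (−0.62) fell in RNA1. In RNA2 and RNA3 ATF5 stood at 0.084 and 0.11 and ATF3 at 0.12 and 0.10, with overlapping libraries. JDP2 had its ABCC1 libraries below all Puro libraries in RNA2 (−0.34, Padj=0.235) and RNA3 (−0.53, Padj=0.0542) too, without passing the test there.

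Serine, one-carbon and amino acid synthesis gave 13 genes, of which PHGDH, PSAT1 and ASNS are members. Of the other 10, 2 rose and 3 fell in RNA1, again beside 17.9% and 19.7% of all genes, none passed in RNA2 and 2 fell in RNA3. The 2 that fell in both were ALDH1L2 and MTHFD2, enzymes of mitochondrial folate metabolism. SHMT2 and MTHFD1L also belong to that pathway and went the other way in the joint fit, at 0.34 (Padj=0.0186) and 0.39 (Padj=0.00125), SHMT2 not with a filter of 10 counts in each library. ALDH1L2 was at 149, 159 and 154 CPM in Puro and 113, 109 and 96.7 CPM in ABCC1 in RNA1 (log2FC=−0.54, SE 0.057, Padj=4.49e-05). In RNA2 its libraries overlapped, at 47.6, 69.8 and 53.1 CPM in Puro and 56.5, 53.4 and 42.3 CPM in ABCC1 (log2FC=−0.16, SE 0.17, Padj=0.598), and in RNA3 they were apart, at 90.3, 116 and 85.2 CPM in Puro and 57.8, 60.8 and 59.7 CPM in ABCC1 (log2FC=−0.71, SE 0.17, Padj=0.00675). MTHFD2 had the same pattern. It was at 364, 354 and 369 CPM in Puro and 291, 299.8 and 305 CPM in ABCC1 in RNA1 (log2FC=−0.28, SE 0.039, Padj=0.000303), at 237, 382 and 407 CPM in Puro and 305, 344 and 295 CPM in ABCC1 in RNA2 (log2FC=−0.12, SE 0.20, Padj=0.760) and at 225, 348 and 297 CPM in Puro and 159, 183 and 182 CPM in ABCC1 in RNA3 (log2FC=−0.73, SE 0.20, Padj=0.0186). PSPH, the last enzyme of serine synthesis, fell in RNA1 (−0.40, Padj=8.07e-05) and stood at −0.049 in RNA2 and −0.52 in RNA3 (Padj=0.0851). MTHFD1L (0.18) and PYCR1 (0.18) rose in RNA1.

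Transfer RNA charging was covered by 13 cytosolic aminoacyl-tRNA synthetases and the exportin XPOT. Of these 14, none rose and 6 fell in RNA1 (17.9% and 19.7% of all genes), none passed in RNA2 and 1 fell in RNA3. WARS, which charges tryptophan and is also known to respond to interferon, fell in both. It was at 377, 388 and 388 CPM in Puro and 256, 249.7 and 262 CPM in ABCC1 in RNA1 (log2FC=−0.59, SE 0.039, Padj=1.42e-06). In RNA2 the groups overlapped, at 60.7, 101 and 79.3 CPM in Puro and 85.6, 64.8 and 58.2 CPM in ABCC1 (log2FC=−0.21, SE 0.19, Padj=0.536), and in RNA3 they did not, at 161, 238 and 198 CPM in Puro and 81.6, 95.0 and 111 CPM in ABCC1 (log2FC=−1.06, SE 0.19, Padj=6.62e-05). The joint fit called it as well (−0.55, Padj=9.79e-05). GARS (−0.36), AARS (−0.29), XPOT (−0.16), NARS (−0.15) and MARS (−0.14) made up the 6. The median log2FC of the 14 was −0.063 in RNA1, 0.28 in RNA2 and −0.10 in RNA3.

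Of 9 amino acid transporters, 2 rose and 3 fell in RNA1, near the shares of 17.9% and 19.7% over all genes, and none passed in RNA2 or RNA3. SLC3A2, the shared heavy chain of several exchangers, rose by 0.33 on the log2 scale in RNA1 (Padj=0.00105) and stood at 0.42 in RNA2 and 0.67 in RNA3 (Padj=0.0551), with its ABCC1 libraries above all Puro libraries each time. SLC7A11, the cystine importer whose substrate feeds glutathione synthesis, rose by 0.14 on that scale in RNA1 (Padj=0.0167). SLC1A4 (−0.31), SLC38A2 (−0.29) and SLC6A9 (−0.26) fell there.

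Among secreted proteins and other stress outputs, a list of 10 of which 5 are members, the other 5 gave 4 that fell and 1 that rose in RNA1 (19.7% and 17.9% of all genes) and none that passed in RNA2 or RNA3. The stress hormones GDF15 (−0.62, Padj=0.000250) and FGF21 (−0.38, Padj=0.00496) fell in RNA1, as did the growth factor VEGFA (−0.35) and the hormone STC2 (−0.24). KLHL24 rose (0.14, Padj=0.0334). In RNA2 GDF15 stood at 0.096 and FGF21 at 0.21, and in RNA3 at −0.32 and −0.38, with overlapping libraries in both experiments.

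Genes of the endoplasmic reticulum stress response that other arms of the unfolded protein response control in large part were the comparison list. Its 7 genes were chaperones and folding enzymes, the transcription factor XBP1 and HERPUD1, a component of the degradation of misfolded protein. Of the 7, 1 rose and 1 fell in RNA1 (17.9% and 19.7% of all genes) and none passed in RNA2 or RNA3. The chaperone HSPA5 was at 1065, 1046 and 1098 CPM in Puro and 1107, 1086 and 1009.8 CPM in ABCC1 in RNA1 (log2FC=−0.0026, SE 0.048, Padj=0.973), where TRIB3 and CHAC1 had fallen. It was higher in ABCC1 without passing the test in RNA2 (log2FC=0.47, SE 0.20, Padj=0.191) and RNA3 (log2FC=0.51, SE 0.22, Padj=0.217), and the joint fit called it (0.39, Padj=0.0128), though not with the filter of 10 counts in each library. HERPUD1, which is known to respond to ATF4 too, was the gene that fell (−0.44, Padj=2.95e-05), and DNAJB9 rose (0.20, Padj=0.0149). The median log2FC of this list was −0.030 in RNA1, beside −0.18 for the 10 members. No test compared the lists with each other.

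The joint fit gave these counts for the other lists, again beside 9.39% of all genes higher and 3.55% lower. It called 2 bZIP genes higher and 1 lower of 7, 3 synthesis genes higher and 2 lower of 13, and 2 transporters higher and 0 lower of 9. It called 1 synthetase higher and 1 lower of 14, 1 stress output higher and 0 lower of 10, and 2 endoplasmic reticulum genes higher and 0 lower of 7. The calls of lower genes depended on scaling and filter. With RLE size factors, where 6.69% of all genes were higher and 5.01% lower, the synthesis genes had 3 higher and 4 lower, the stress outputs 1 and 3, and the endoplasmic reticulum genes 1 and 1. With the filter of 10 counts in each library, where 16.5% of all genes were higher and 20.3% lower, they had 2 and 6, 1 and 7, and 0 and 1, and the synthetases had 1 and 4. The stress outputs called lower then included the members SESN2, VLDLR, CHAC1 and TRIB3, and the synthesis genes PHGDH, ASNS and PSAT1.

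**Figure D4:**
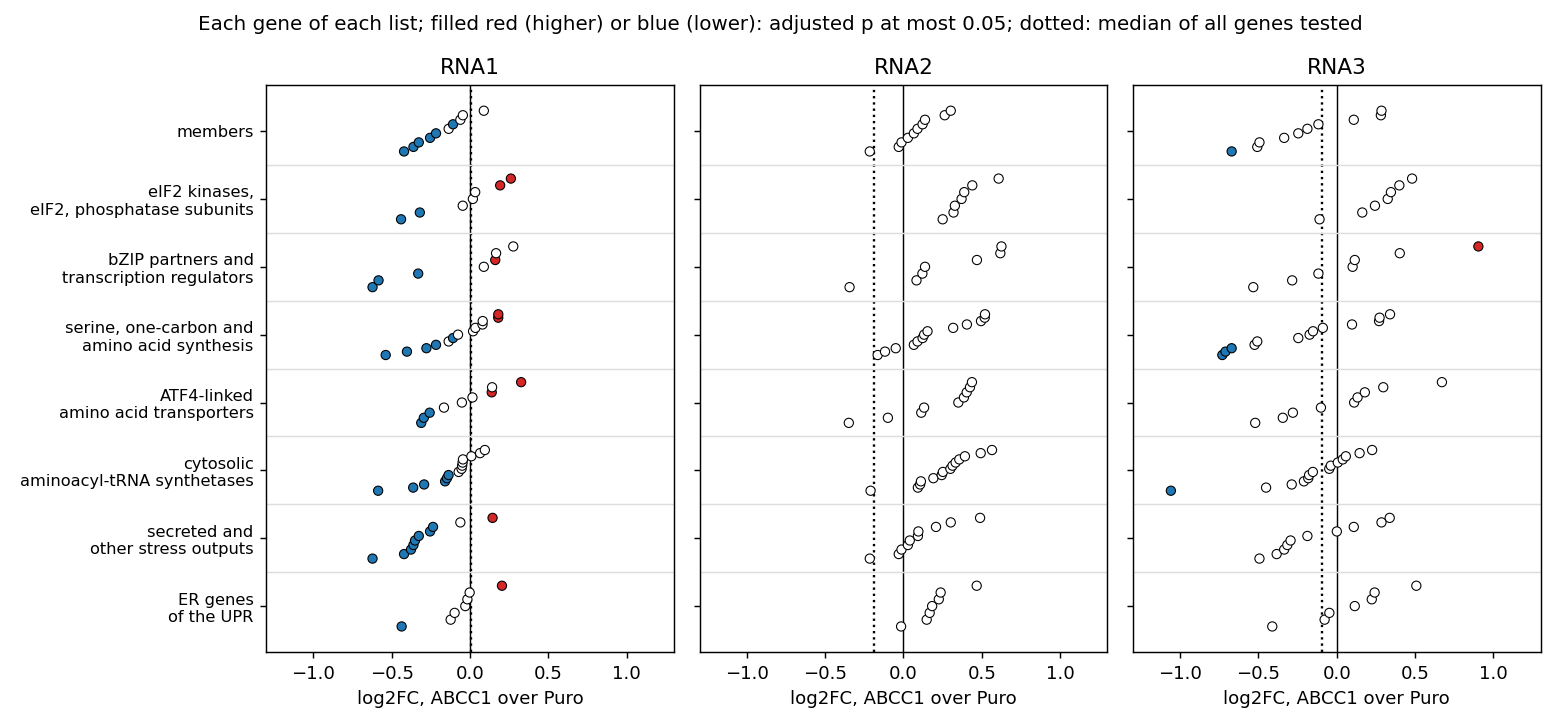
log2FC of ABCC1 over Puro (x axis) for each gene of each list (rows) in RNA1, RNA2 and RNA3; points are genes, filled blue where lower and red where higher at an adjusted P of at most 0.05, and dotted lines mark the median of all genes tested. RNA1 holds filled points in both colors, RNA2 holds none, and RNA3 holds CEBPG on the right and WARS, MTHFD2, ALDH1L2 and PHGDH on the left.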

How the data were processed

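The authors aligned reads with STAR 2.7.3a after bcl2fastq 2.18, to Ensembl GRCh37 (release 74) with decoy and vector sequences. The deposited counts are raw read pairs per gene from featureCounts (Subread 2.0.0), counted over exons without strand, 1 table per library. Pairs that map to several places or genes were not counted, which lowers genes with near copies. Vector and spike-in rows were not removed before library sizes, scaling, fits and adjustment, and the depths include them. Only Ensembl genes were counted as tested or called. Vector rows held 1.30% to 1.32% of counts in RNA1 ABCC1 libraries and 0.362% to 0.428% in RNA1 Puro. In RNA3 they held 0.753% to 0.783% and 0.354% to 0.423%, and in RNA2 the lines overlapped. Their part in the changes was not tested. Genes passing filterByExpr (minimum count 10) were tested within each experiment with edgeR 4.0.16 (R 4.3.3, TMM, robust quasi-likelihood test, Benjamini-Hochberg adjustment over all genes tested) and called at an adjusted P of at most 0.05. A joint fit of 6 group means gave the mean change and the interaction. CPM are TMM-scaled, and exact tests used log2(CPM + 0.1). DESeq2 1.42.0, limma-voom (limma 3.58.1), other filters and scalings, a replicate block, a background covariate and left-out libraries were the alternatives. The tests were tried on simulated data. The 10 genes and the lists were chosen with earlier results of these data known. All 10 genes were named, and from each list up to 3 genes called in the same direction in at least 2 experiments. All other list genes named were chosen after their values were seen. PECAM1 among the markers matched no row, and 1 marker is not reported here. Promoters were matched by symbol (10 of 10).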

Additional observations from a re-analysis of the deposited data

How the results depend on the processing

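The count of the 10 genes called in RNA1 (6) fell to 2 with background reads as a covariate and to 0 with the spread shared across 18 libraries, with or without TMM within each experiment, and without 1 library it was between 5 and 9. In RNA2 it was 0 under each alternative and without each library. In RNA3 (1) it was 0 with RLE size factors, 2 when each library had to hold at least 10 counts and 3 with the replicate block (CHAC1, ASNS and PHGDH), and between 0 and 2 without 1 library. In the joint fit (0) it was 3 with DESeq2 and with RLE size factors, 7 with at least 10 counts per library, 1 with TMM within each experiment and 6 with that and at least 10 counts, and between 0 and 2 without 1 library. For differences between experiments (0) it was 1 with DESeq2, 1 with at least 10 counts, also with TMM within each experiment, and 0 without each library.

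Over all genes, the 6382 calls of RNA1 became 1471 with the covariate, 1528 with the shared spread and 1496 with the shared spread and TMM within each experiment, and between 4663 and 7827 without 1 library. The 581 of RNA2 became 2848 with DESeq2, 1307 with limma-voom, 1086 with RLE size factors, 1402 without a filter, 12 with the covariate, 4924 with the shared spread, 5634 with that and TMM within each experiment, and between 8 and 1359 without 1 library. The 1021 of RNA3 became 1597 with DESeq2, 1725 with at least 10 counts, 1885 with the replicate block, 153 with the covariate, and between 394 and 2762 without 1 library. RLE size factors moved their split from 741 higher and 280 lower to 966 and 199. DESeq2 gave 1454 and 143, the covariate 29 and 124. The RNA1 split of 3040 and 3342 became 517 and 954 with the covariate and 492 and 1004 with the shared spread and TMM within each experiment. The 5980 of the joint fit were between 4898 and 7196 without 1 library. The 551 for differences became 877 with DESeq2, 363 with at least 10 counts, and between 334 and 1113 without 1 library. The 6 member calls in RNA1 and the 1 in RNA3 kept their sign under each alternative. Values called only under an alternative did not all do so, namely DDIT4 in RNA1 and RNA3 and TRIB3 and PSAT1 in the joint fit. The cause of these shifts in calls was not tested. The shared spread with TMM within each experiment, TMM within each experiment in the joint fits the left-out libraries there and the alternatives for the lists were chosen after seeing the data.

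Correlations of the deviations of Puro and ABCC1 libraries were between −0.14 and 0.091 with the same replicate number and between −0.14 and 0.14 with different numbers. They cannot show whether equal numbers mark the same plating week, which the labels do not give. With the replicate block, 5 of the 10 genes were called in RNA1 (ASNS was lost), none in RNA2, and CHAC1, ASNS and PHGDH in RNA3. None was called in the joint fit with the block, where CHAC1 had an adjusted P of 0.0637 (edgeR). RNA3 is the shallowest experiment and RNA2 the most variable, which limits small changes there.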
